A study of Bos taurus with 22 samples.

Results

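Iron handling in bovine adipose tissue was described through 7 genes: TF, TFRC, FTH1, FTL, SLC40A1, HMOX1 and CP. A probe set was taken where the array's annotation gave it 1 of these symbols and no other, which left 8 of 24016 bovine probe sets, for 6 of the 9155 genes with a symbol. CP had 3 of them, and TF, TFRC, FTH1, FTL and HMOX1 had 1 each. No probe set carried the single symbol SLC40A1, so ferroportin, the iron exporter, is not analysed here. TF headed the list because its postpartum fall was already known from these arrays. The postpartum change of the 7 genes is therefore given as a description, without a p-value. Tests of these genes were kept for measures that had not been used to choose them.

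The samples were subcutaneous white adipose tissue, taken dorsally, from 11 Holstein heifers around their first calving, which came at 24 to 28 months of age. Each animal was biopsied 14 days postpartum and 30 days prepartum, so that there were 11 postpartum and 11 prepartum arrays and, by the labels, each cow was its own control. All animals came from 1 farm and the design names no dietary treatment, although the labels give a prepartum ration of mainly haylage and hay and mention feeding postpartum separately. The titles end in 1 of 2 codes of unstated meaning, which place 6 cows in array set 2 and 5 cows in array set 1, each cow with both of its arrays.

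Iron travels in blood bound to transferrin (TF), which is made mainly by the liver and also by other tissues. Transferrin docks on the transferrin receptor (TFRC) and is taken into the cell. Iron that is not used at once is stored in ferritin, a shell of heavy (FTH1) and light (FTL) chains, of which the heavy chain oxidises the incoming iron. Export needs ferroportin and a copper ferroxidase such as ceruloplasmin (CP), which readies iron for loading onto transferrin. Haem oxygenase 1 (HMOX1) opens the haem ring and frees its iron, a step that is prominent in macrophages. Ferritin and receptor protein are set largely by control of translation and mRNA stability, so transcript signal reports only part of their regulation.

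Some arrays stood apart. Relative to each gene's median over the 22 arrays, the median of 10 skeletal muscle markers stood 8.37 log2 units up in the postpartum array of cow 384, 4.63 in the postpartum array of cow 386, 7.66 in the prepartum array of cow 387 and 3.56 in the prepartum array of cow 384. It was at most 1.30 in the others. The arrays labelled cow 387 did not resemble each other as those of the other cows did: their deviations from the group means correlated at -0.09, against 0.18 to 0.43 in the other 10 cows. Whether both came from 1 animal was not tested. In 5 of 11 cows the postpartum array correlated best with the prepartum array of its own number, and that of cow 384 correlated at 0.64 with the prepartum array of cow 387, against 0.21 with its own. Values are therefore also given without cows 384 and 387. Cow 386, with 4.63 in its postpartum array, remains in those values. Summed over 5 epidermis probe sets, signal was 908 to 9832 prepartum in 4 cows (330, 331, 341 and 382) and 209 to 352 in the other 18 arrays. A sign of RNA quality, the log2 ratio of 3 prime to 5 prime GAPDH signal, differed by 0.03 postpartum against prepartum (SD 0.28, n = 11 cows), and its highest value was 1.26 in the postpartum array of cow 341. The adipocyte markers were present: all 13 annotated ones passed the filter on dim probe sets, with ADIPOQ, LEP, FABP4 and CIDEC among them.

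Transferrin signal was lower postpartum in 10 of 11 cows. TF measured 14.1 to 352 in the postpartum arrays, with a median of 169, against 63.4 to 1302 with a median of 414 in the prepartum arrays. The groups overlapped, but 4 postpartum arrays lay below every prepartum array and 7 prepartum arrays lay above every postpartum one. On the scale of log2(signal + 7.78), which understates the change of dim probe sets, the mean change was -1.74 (SD 1.32, n = 11 cows), a 3.35-fold lower signal. The size of the difference varied widely among animals. In cow 384 the change was -3.57, in cow 360 it was -3.33 and in cow 341 it was -2.83, while in cow 331 it was -0.62. The pair labelled cow 387 had a change of 0.82, with 118 postpartum and 63.4 prepartum, and its prepartum array was that with high muscle markers. Without cows 384 and 387 TF was lower in 9 of 9 cows, by a mean of -1.83 (SD 0.97, n = 9).

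TF varied widely between animals in both periods. The highest postpartum signal was 25.0 times the lowest, and the highest prepartum signal 20.5 times the lowest, or 6.14 times without cows 384 and 387. The SD of the log2 level was 1.55 postpartum and 1.11 prepartum (n = 11 each), beside 0.25 postpartum and 0.17 prepartum for FTH1, the steadiest of the genes. Postpartum the arrays fell apart into 4 with 14.1 to 48.2 (cows 360, 384, 386 and 341) and 7 with 118 to 352, a division read from the values themselves. Of the low 4, those of cows 384 and 386 had high muscle markers (8.37 and 4.63 log2 units up). That of cow 341 had the highest GAPDH ratio (1.26 on the log2 scale). The part of these traits in the TF values was not tested.

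Ceruloplasmin, the ferroxidase, was lower alongside transferrin in most cows. Its brightest probe set measured 18.9 to 152 in the postpartum arrays, with a median of 51.7, against 31.6 to 425 with a median of 226 in the prepartum arrays. In all, 8 prepartum arrays lay above every postpartum array, although the groups overlapped. The mean change was -1.53 (SD 1.24, n = 11 cows, lower in 9), a 2.89-fold lower signal. The exceptions were cow 331, at 0.09, and the pair labelled cow 387, at 1.39. It averaged -1.84 (SD 0.87, n = 9, lower in 8) without cows 384 and 387.

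The other CP probe sets had the same direction. The second averaged -1.15 (SD 0.73, n = 11 cows, lower in 10) and the third -1.03 (SD 0.96, n = 11 cows, lower in 9). Across the 11 cows the changes of the 3 CP probe sets correlated with one another at r = 0.93 to 0.95. These are probe sets of 1 gene read on the same arrays. In the second probe set the cows without 384 and 387 were nearly separated: 8 of 9 postpartum arrays lay below every prepartum array.

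**Figure D1:**
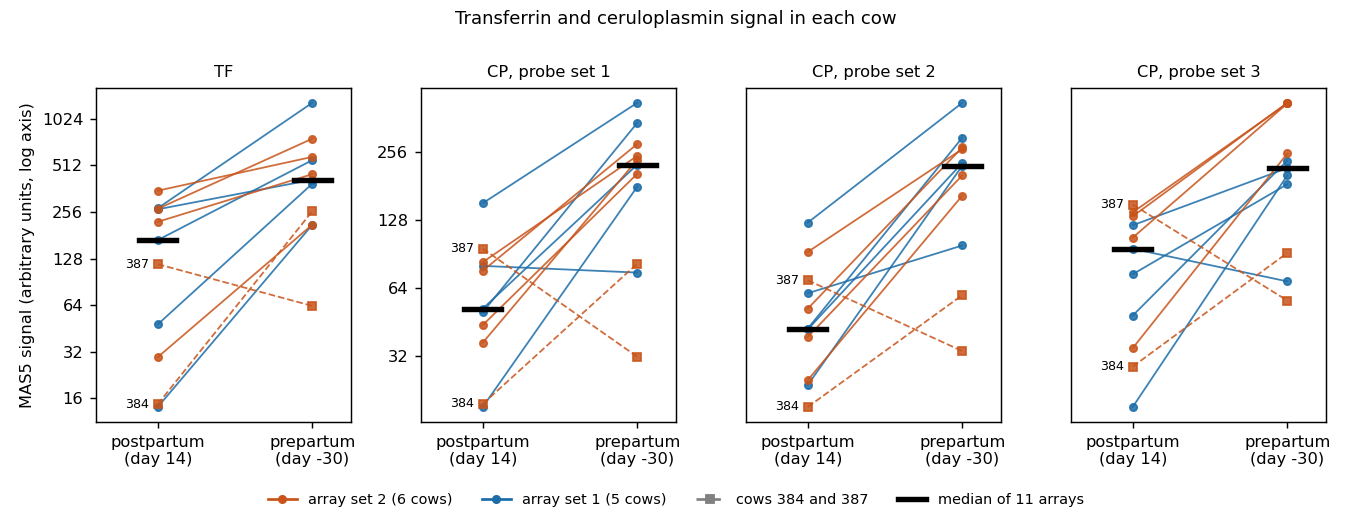
MAS5 signal (log axis) of TF and the 3 CP probe sets in the postpartum and prepartum array of each cow, with lines joining the arrays of a cow and black bars at the median of 11 arrays. TF has a median of 169 postpartum and 414 prepartum, the lines of all cows but 387 run lower postpartum for TF, and in cow 387 all 4 probe sets run the other way.

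Markers of other sources were read beside TF and CP. Of 9 annotated hepatocyte markers, 4 passed the filter and none was called. Their summed signal was 1132 to 1744 in the postpartum arrays and 1361 to 1842 in the prepartum arrays, and APOA2, APOB, FGB, SERPINC1 and AMBP were below the filter. Of 13 adipocyte markers, 3 were called lower (LEP, LPL and GPD1) and none higher, beside 2.16% of named genes called lower, and their median change was -0.25, against 0.01 over the named genes. Their summed signal was 16949 to 35029 in the postpartum arrays and 24854 to 38773 in the prepartum arrays. None of the markers was at 0 on any array. Their part in the TF and CP values was not tested. In bulk tissue, fewer cells of a type and less RNA per cell cannot be told apart.

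Ferritin heavy chain was bright on all arrays and moved little. FTH1 measured 5472 to 8486 in the postpartum arrays, with a median of 7806, against 5332 to 7820 with a median of 6066 in the prepartum arrays. The groups overlapped, with 5 postpartum arrays above every prepartum one. The mean change was 0.15 (SD 0.28, n = 11 cows), positive in 6 cows and negative in 5, a difference smaller than the spread between cows.

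Ferritin light chain was higher postpartum in 10 of 11 cows, by a small amount. FTL measured 1730 to 4257 in the postpartum arrays, with a median of 2248, against 1509 to 2819 with a median of 1859 in the prepartum arrays. The highest postpartum value, 4257, belonged to cow 387, and the next among the postpartum arrays was 2677 in cow 330, below the highest prepartum value, which was that of cow 347. The mean change was 0.35 (SD 0.46, n = 11 cows), and 0.22 (SD 0.28, n = 9) without cows 384 and 387. In array set 2 each of 6 postpartum arrays, from 2125 to 4257, lay above each of 6 prepartum arrays, from 1509 to 2037. Such separation in that direction was seen in 0.368% of the kept probe sets. In array set 1 the groups overlapped, and cow 347 was lower postpartum (-0.31).

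Haem oxygenase 1 differed in direction between cows. HMOX1 measured 77.0 to 451.5 in the postpartum arrays, with a median of 199, against 84.6 to 258 with a median of 129 in the prepartum arrays. It was higher postpartum in 7 cows and lower in 4. The mean change was 0.43 (SD 0.79, n = 11 cows), and 0.20 (SD 0.60, n = 9) without cows 384 and 387. The largest changes were 2.02 in the pair labelled cow 387 and 1.20 in cow 341.

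The transferrin receptor was too dim to be followed. TFRC lay at the 22.4th percentile of all bovine probe sets, under the filter at the 40th, and measured 5.01 to 40.7 in the postpartum arrays and 2.79 to 16.7 in the prepartum arrays. The value of 40.7 was that of cow 384 on the array with the most muscle signal, and no other postpartum array exceeded 12.3. The mean change was 0.11 (SD 0.60, n = 11 cows, higher in 5) and -0.10 (SD 0.30, n = 9, higher in 3) without cows 384 and 387.

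**Figure D2:**
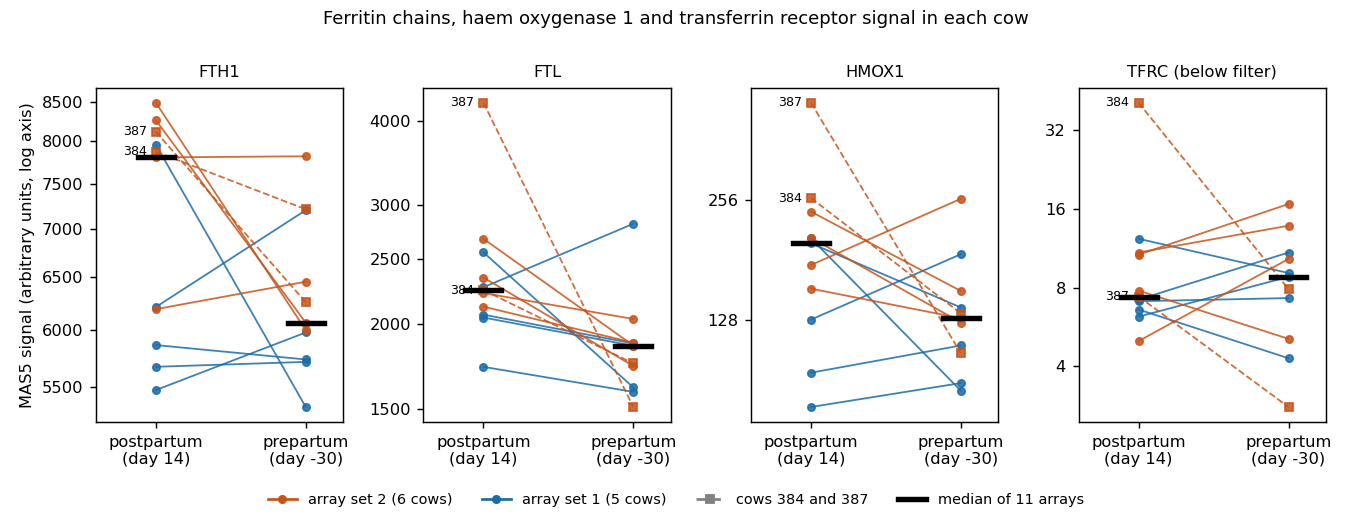
MAS5 signal (log axes with different ranges) of FTH1, FTL, HMOX1 and TFRC in the postpartum and prepartum array of each cow, with black bars at the median of 11 arrays. FTH1, FTL and HMOX1 have higher medians postpartum with overlapping groups, and the top postpartum points are cow 387 for FTL and HMOX1 and cow 384 for TFRC.

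**Figure D3:**
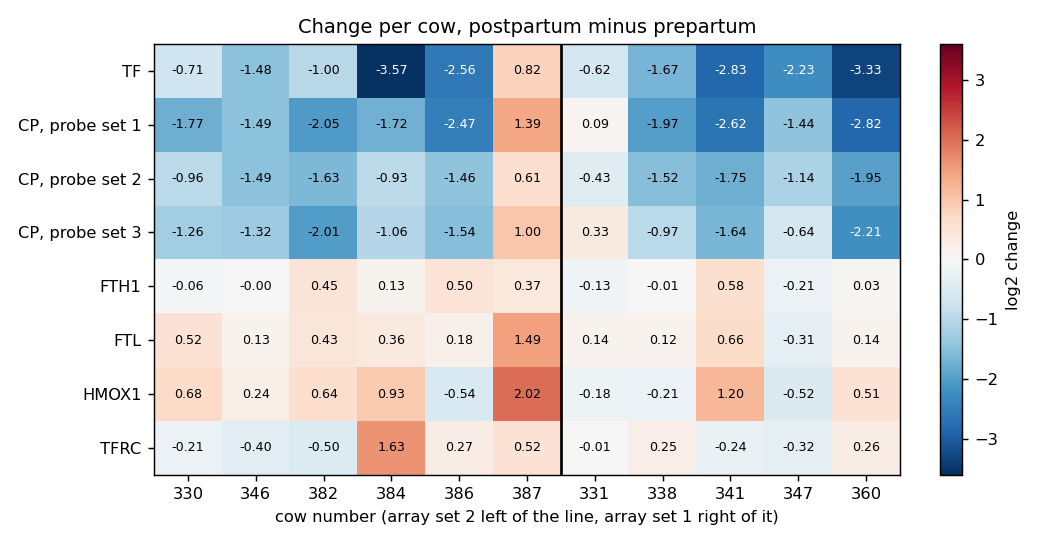
Log2 change, postpartum minus prepartum, of each of the 8 probe sets in each of the 11 cows, with array set 2 left of the line and array set 1 right of it. TF and CP are negative in most cows, FTL is positive in 10 of 11, and the column of cow 387 is positive throughout.

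Over all kept probe sets limma's moderated test, with cow as a block and Benjamini-Hochberg adjustment, called 494 of 14410 at an adjusted p under 0.05, which is 3.43%, with 1.98% lower and 1.44% higher. Of the 7 kept probe sets of iron handling genes it called 4, TF and the 3 of CP, all lower. Since TF was chosen for that change, nothing is read from this count. The median change over the 7 was -1.03, against 0.01 over all kept probe sets, and 3 of the 7 belong to 1 gene.

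The wider iron pathway was read from a list chosen by role, but with earlier results of these data known. Its p-values and shares are therefore not those of a list fixed beforehand. This list of 71 further genes of iron uptake, storage, regulation, haem and iron-sulphur clusters had 44 genes with a probe set and 39 that passed the filter. By limma's test 2 of the 39 were called higher, or 5.13%, and none lower. Of 6984 named genes 3.71% were called in either direction, 1.55% higher and 2.16% lower. The rounded mean change was positive in 19 of the 39. An unadjusted p under 0.05 was reached by 11 of the 39, or 28.2%, against 20.8% of the named genes. The median change of the 39 was 0.00, against 0.01 over the named genes. The called genes were SLC39A8, a metal ion importer of the ZIP family, and BLVRB, a biliverdin reductase.

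SLC39A8 measured 19.4 to 381 in the postpartum arrays, with a median of 220, against 52.8 to 165 with a median of 80.9 in the prepartum arrays. It was higher postpartum in 10 of 11 cows, cow 384 being the exception. The change was 0.84 (SE 0.22, n = 11 cows, limma adjusted p = 0.0465), and 1.05 (limma adjusted p = 0.00217, higher in 9 of 9) without cows 384 and 387. BLVRB measured 141 to 564 in the postpartum arrays, with a median of 238, against 116 to 215 with a median of 176 in the prepartum arrays. The change was 0.56 (SE 0.14, n = 11 cows, higher in 10, limma adjusted p = 0.0493), and 0.39 (limma adjusted p = 0.0624) without cows 384 and 387. Beside these calls, 2 of 8 endothelial markers were called higher (VWF and TEK), against 1.55% of named genes, and the median change of the 8 was 0.21. The mean change was positive in 5 of the 8 and negative in the rest. Their summed signal with KDR was 1820.0 to 4883 in the postpartum arrays (at least 3192.5 without cows 384 and 387) and 2923 to 4210.2 in the prepartum arrays. The erythrocyte marker that passed the filter, HBB, had a change of 0.43 and was not called, and the 6 annotated erythrocyte markers summed to 42.4 to 594 in the postpartum arrays and 86.1 to 302 in the prepartum arrays. The part of these cells in the SLC39A8 and BLVRB values was not tested. Both calls lay close to the threshold. Leaving out any 1 of cows 331, 341, 347, 360, 330, 346, 382, 386 and 387 ended both.

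Among uptake genes and scavengers, 1 of 7 was called higher (SLC39A8). That is 14.3%, beside 3.71% of named genes called in either direction, but it rests on 1 gene. HP, haptoglobin, which binds free haemoglobin and is an acute phase protein in cattle, spanned 32.1 to 1266 in the postpartum arrays and 6.56 to 306 in the prepartum arrays. Its change of 1.68 (SE 0.47, n = 11 cows, higher in 10) did not pass limma's test (adjusted p = 0.0642, and 0.0998 without cows 384 and 387). SLC11A1, the phagosomal metal transporter of macrophages, had a change of 1.03 (SE 0.35, limma adjusted p = 0.116). SCARA5, a receptor that can take up ferritin, had a change of -0.51 (SE 0.18, limma adjusted p = 0.127). None of 3 genes of storage turnover and iron chaperones passed, among them NCOA4, which delivers ferritin to lysosomes (change 0.10, limma adjusted p = 0.453).

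None of 5 regulators passed over 11 cows. ACO1, which doubles as iron regulatory protein 1, had a change of 0.26 (SE 0.10, limma adjusted p = 0.175), and BMP2 had a change of -0.55 (SE 0.19, limma adjusted p = 0.12). In haem metabolism 1 of 13 was called higher (BLVRB), or 7.69%, which again rests on 1 gene. Over 11 cows 3.71% of named genes were called in either direction, so nothing is read from the counts by role. The constitutive haem oxygenase HMOX2 had a change of 0.02 (limma adjusted p = 0.948). None of 11 mitochondrial iron and iron-sulphur genes passed: SLC25A28, a mitochondrial iron importer, had a change of 0.29 (SE 0.08, limma adjusted p = 0.0596), and ISCA2, an iron-sulphur assembly protein, of -0.27 (SE 0.10, limma adjusted p = 0.134). Without cows 384 and 387, 3 of the 39 were called, all higher: SLC39A8, SLC25A28 (limma adjusted p = 0.021) and ACO1 (limma adjusted p = 0.0498). Over all kept probe sets 7.43% were called in that fit in either direction, close to the share of the list, so nothing is read from this count. ACO1, NCOA4 and HMOX2 were named after their values had been seen.

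**Figure D4:**
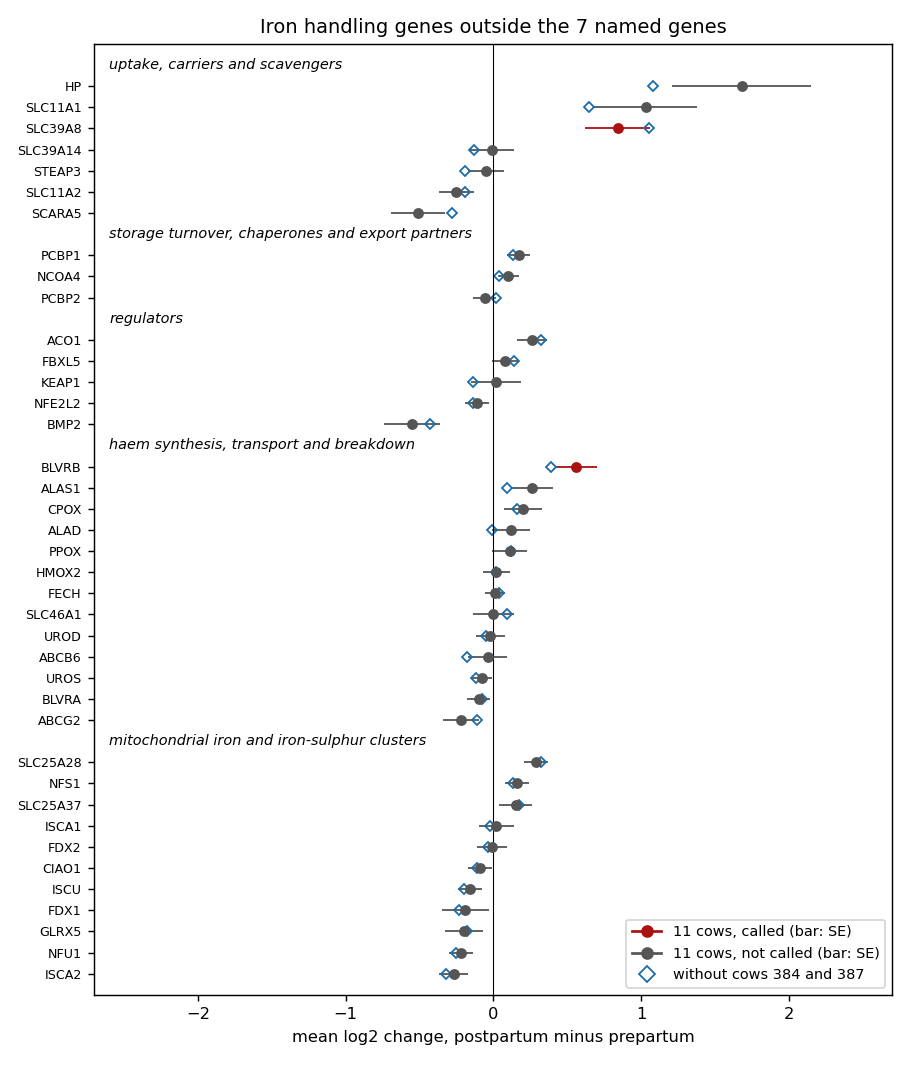
Mean log2 change, postpartum minus prepartum, of the 39 further iron handling genes that passed the filter, grouped by role, with bars for the SE of the limma fit over 11 cows and open diamonds for the mean without cows 384 and 387. SLC39A8 (0.84) and BLVRB (0.56) are the 2 called genes, and the median of the 39 is 0.00.

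The array sets were then compared, a contrast that had played no part in the choice of genes. The change of TF averaged -1.42 in array set 2 (SD 1.52, n = 6) and -2.14 in array set 1 (SD 1.05, n = 5), a difference of 0.72 (SE 0.67, limma interaction adjusted p = 0.997). For the brightest CP probe set the averages were -1.35 in array set 2 (SD 1.39) and -1.75 in array set 1 (SD 1.16), a difference of 0.40 (SE 0.65, limma adjusted p = 0.997). FTL averaged 0.52 in array set 2 (SD 0.50) and 0.15 in array set 1 (SD 0.35), a difference of 0.37 (SE 0.24, limma adjusted p = 0.997). HMOX1 averaged 0.66 in array set 2 (SD 0.84) and 0.16 in array set 1 (SD 0.70), a difference of 0.50 (SE 0.41, limma adjusted p = 0.997). None of the 7 kept probe sets was called, nor was any of 14410 (0.0%), of which 516 had an unadjusted p under 0.05 in limma's interaction test.

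Prepartum levels were compared between the sets in the same way. TF stood at 8.27 on the log2 scale in array set 2 (SD 1.24, n = 6) and 8.93 in array set 1 (SD 0.94, n = 5), a difference of -0.65 (SE 0.55, limma adjusted p = 0.489). Without cows 384 and 387 the difference was -0.07 (SE 0.45, limma adjusted p = 0.944). None of the 7 kept probe sets passed, while 9.33% of all kept probe sets did, and 4.39% without cows 384 and 387. The third CP probe set came nearest when cows 384 and 387 were left out, at 6.99 in array set 2 and 6.09 in array set 1 (difference 0.90, SE 0.25, limma adjusted p = 0.0631), whereas the other CP probe sets then differed by 0.15 and -0.04. Cows and any difference in array handling cannot be told apart between the sets.

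How the genes varied together among cows was examined over 27 relations of paired changes: 15 between the 6 measured genes, and 12 between each gene and the median change of the adipocyte or the macrophage markers. All points share the arrays and their scaling, and TFRC lay below the filter. Over 11 cows 4 relations had an adjusted p under 0.05 by a permutation test of Pearson's r (two-sided, 100000 resamples), and none did in Spearman's rho. FTL and HMOX1 had r = 0.90 (permutation p = 0.00011, adjusted p = 0.00297) and rho = 0.81 (permutation p = 0.00401, adjusted p = 0.108). TF and CP had r = 0.79 (permutation p = 0.00251, adjusted p = 0.0226) and rho = 0.63 (permutation p = 0.0432, adjusted p = 0.256).

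The pair labelled cow 387 had the highest change of TF, CP, FTL and HMOX1. FTL and HMOX1 had r = 0.83 without cows 384 and 387 (exact permutation p = 0.00536, adjusted p = 0.0884), and r = 0.79 without cows 387 and 347, the farthest in FTL (exact permutation p = 0.0132, adjusted p = 0.157). Within array set 2 alone, of 6 cows, it was 0.88 (exact permutation p = 0.0167, adjusted p = 0.15), and array set 1, of 5 cows, was too small. TF and CP had r = 0.73 without cows 384 and 387, which are also the farthest in TF (exact permutation p = 0.0176, adjusted p = 0.119), and 0.72 within array set 2 (exact permutation p = 0.118, adjusted p = 0.354). No relation of the 27 had an adjusted p under 0.05 in these smaller sets.

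HMOX1 and FTL varied with the macrophage markers. The median change of 10 macrophage markers had r = 0.82 with that of HMOX1 (permutation p = 0.00241, adjusted p = 0.0226; rho = 0.67, permutation p = 0.0274, adjusted p = 0.256). For FTL it was r = 0.77 (permutation p = 0.00429, adjusted p = 0.029; rho = 0.66, permutation p = 0.0304, adjusted p = 0.256). The values without cows 384 and 387 were 0.83 for HMOX1 (exact permutation p = 0.00654, adjusted p = 0.0884) and 0.65 for FTL (exact permutation p = 0.0572, adjusted p = 0.246). Without the 2 cows farthest in each gene they were 0.71 for HMOX1 (exact permutation p = 0.0357, adjusted p = 0.193) and 0.60 for FTL (exact permutation p = 0.0865, adjusted p = 0.286). Within array set 2 they were 0.79 for HMOX1 (exact permutation p = 0.0722, adjusted p = 0.277) and 0.92 for FTL (exact permutation p = 0.0139, adjusted p = 0.15). All 10 macrophage markers had a positive mean change (median 0.34), against 52.6% of named genes (median 0.01), and none was called, beside 3.71% of named genes. The cows differed in direction: the median change of these markers ran from -0.73 in cow 331 to 1.52 in the pair labelled cow 387. It was negative in cows 331, 338, 347, 384 and 386 and positive in the others. The summed signal of the 10 markers was 2188 to 12192 in the postpartum arrays (at most 6422 without cows 384 and 387) and 2242 to 5694 in the prepartum arrays. CD163, MRC1, MARCO, CD74 and LYZ had no single-symbol probe set. The part of macrophage content in the HMOX1 and FTL values was not tested.

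The relation of TF to the adipocyte markers rested on cows 384 and 387. The change of TF had r = 0.53 with their median change over 11 cows (permutation p = 0.092, adjusted p = 0.355; rho = 0.44, permutation p = 0.182, adjusted p = 0.614). With cows 384 and 387 left out, the farthest in TF, r was 0.00 (exact permutation p = 0.997), and within array set 2 it was 0.60 (exact permutation p = 0.208, adjusted p = 0.511). Its relation to the macrophage markers had opposite signs in the subsets: r = 0.93 within array set 2 (exact permutation p = 0.00278, adjusted p = 0.075) and -0.39 without cows 384 and 387 (exact permutation p = 0.291, adjusted p = 0.486), against 0.25 over 11 cows (permutation p = 0.464, adjusted p = 0.697, rho = 0.09). Array set 2 includes cows 384 and 387. CP likewise had r = 0.85 with these markers within array set 2 (exact permutation p = 0.0639, adjusted p = 0.277). Without cows 384 and 387 CP had r = -0.77 (exact permutation p = 0.0107, adjusted p = 0.0965).

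**Figure D5:**
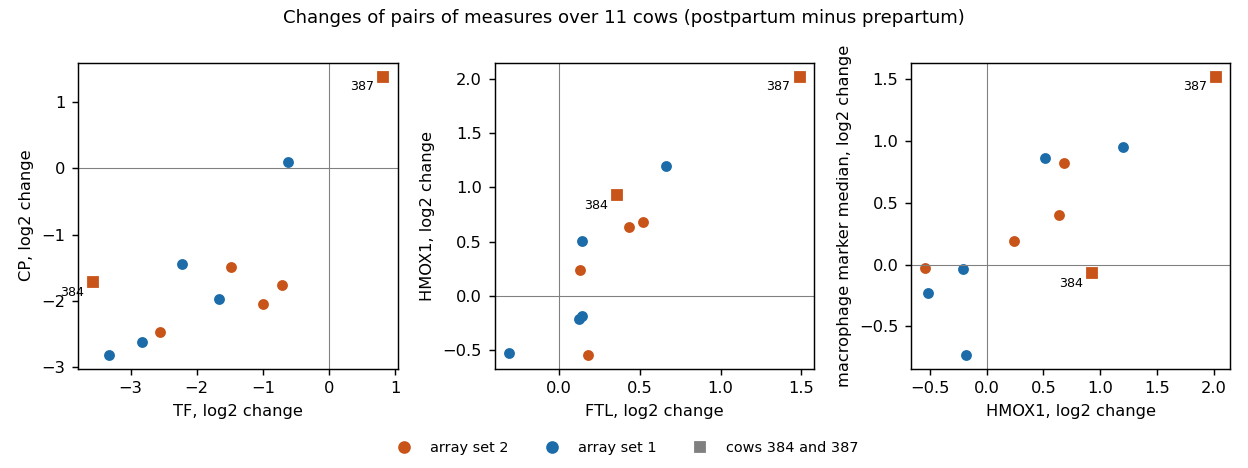
Log2 change, postpartum minus prepartum, of TF against CP, FTL against HMOX1, and HMOX1 against the median of 10 macrophage markers, with 1 point for each of 11 cows and squares for cows 384 and 387. Pearson's r is 0.79, 0.90 and 0.82 over 11 cows, and 0.73, 0.83 and 0.83 without the squares.

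Genes with a profile like that of TF were ranked among 6983 named genes by Pearson's r over the 22 arrays, as a description. The 8 closest were CMPK1 (r = 0.84), CP (0.84), SCD (0.83), ARF4 (0.83), ADISSP (0.82), GNG10 (0.82), FZD4 (0.81) and DGAT2 (0.80). SCD is the stearoyl-CoA desaturase, DGAT2 makes triglyceride from diacylglycerol, FZD4 is a Wnt receptor, ARF4 is a small GTPase of vesicle traffic and CMPK1 is a nucleotide kinase. SCD averaged -1.83 postpartum against prepartum and DGAT2 -1.29, while CMPK1 and ARF4 averaged -0.22 and -0.20.

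The order partly reflects the shared difference between periods. After each period's mean was subtracted, the 8 closest were RIDA (r = 0.82), CMPK1 (0.81), SLC66A3 (0.76), CP (0.76), ARF4 (0.75), SCD (0.75), GNG10 (0.75) and ELL2 (0.74), so that CMPK1, CP, SCD, ARF4 and GNG10 stood in both lists. In the 18 arrays without cows 384 and 387 CP had r = 0.81 (rank 4) over levels and 0.66 (rank 22) with period means subtracted. SCD was then the closest over levels (r = 0.84). Of the 8 genes named over levels 4 were again among the closest 8 in those 18 arrays, and of the 8 with means subtracted 3 were.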

How the data were processed

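The authors hybridised total RNA to 22 Affymetrix bovine arrays and deposited linear signal intensities from MAS5, per the submitters' processing notes; its settings and the array's build are not given here. Every array had a mean of 125.0 after trimming 2% from both ends, as whole-array scaling gives. Median signal was 39.9 to 47.4. No depth exists, and the number of arrays limits precision. Of 24128 probe sets, 112 controls were left out. Single symbols stood on 13292 of the rest, several on 86 and none on 10638; 13263 were updated by Entrez identifier from the RefSeq table of ARS-UCD2.0.

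Values were taken as log2(signal + 7.78), the median 20th percentile, and 14410 probe sets at or above the 40th percentile of mean level (5.05) were kept. A gene was represented by its brightest kept probe set. Moderated tests (limma 3.58.1, R 4.3.3) had cow as a fixed block, a variance trend on intensity and a threshold of 0.05. They were also run on simulated data with independent noise. That noise held no outlying arrays, so the run cannot vouch for the calls made here. Cow numbers in the titles and the series design give the pairing; same-numbered arrays correlated above 0.1 in 10 of 11 cows, and 5 of 11 postpartum arrays matched their own prepartum array best. Animals are the replicates. The genes, the further iron list and the marker lists were chosen with earlier results of these data known. The genes named from the further list were those called and the 8 with the largest changes. ACO1, NCOA4 and HMOX2 were added after their values had been seen. The genes like TF were the 8 with the highest r by each measure. Alternatives varied pseudocount, normalization, filter, weights, block, test, probe set, array set and cows. Figures used matplotlib 3.10.9 in Python 3.11.15.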

Additional observations from a re-analysis of the deposited data

How the results depend on the processing

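Against 2 further iron handling genes called by limma, 1 was called with pseudocount 1 (BLVRB), with pseudocount 32 and with quantile normalization (SLC39A8 in each), 3 with a filter at the 60th percentile (SLC39A8, BLVRB and SLC25A28), 3 without cows 384 and 387, and 4 with array weights. None was called with no filter (11 at an unadjusted p under 0.05), without the replicate block (11), with an ordinary paired test (13), in either array set on its own (7 in set 1 and 6 in set 2) or without cows 330, 331, 341 and 382 (6). Leaving out single cows gave 0 to 4: 4 without cow 384, 1 without cow 338 (BLVRB), 1 without cow 347 (HP), and 0 without each of the other 8. Over all kept probe sets 3.43% were called in the main fit and 7.43% without cows 384 and 387. The shares in the other fits are not given here, so nothing about iron genes is read from these counts. SLC39A8 had an adjusted p of 0.00169 to 0.514 over 23 alternatives and passed in 6, and BLVRB 0.0134 to 0.453 and passed in 4. For the array set contrasts, 0 member probe sets were called in each alternative run. Of 4 relations between changes, 0 passed without cows 384 and 387, without the 2 farthest cows, or in array set 2 alone, where there are fewer cows. Over 19 alternatives the mean change was -2.14 to -1.42 for TF, -1.84 to -1.24 for CP, 0.05 to 0.23 for FTH1, 0.15 to 0.52 for FTL, 0.16 to 0.66 for HMOX1 and -0.10 to 0.32 for TFRC. Leaving out single cows gave -2.0 to -1.56 for TF and -1.83 to -1.40 for CP. The cause of these differences was not tested.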

Other observations

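The postpartum level of each gene was set against its prepartum level over the 11 cows, a relation added after the data had been seen. TF kept much of its order among animals: Spearman's rho was 0.84 (permutation p = 0.00233, adjusted p = 0.014 over 6 genes) and Pearson's r 0.55 (permutation p = 0.0793, adjusted p = 0.476). Without cows 384 and 387 r was 0.80 (exact permutation p = 0.00599, adjusted p = 0.0359), and without the 2 cows farthest in the postpartum level, 360 and 384, it was 0.52 (exact permutation p = 0.149, adjusted p = 0.605). Within array set 2 it was 0.47 (exact permutation p = 0.354, adjusted p = 0.708). In the other 5 genes r lay between -0.28 (FTL) and 0.16 (FTH1), with no adjusted p under 0.05. Of these, TFRC lay below the filter, and FTH1 and FTL varied little between animals. The SD of their prepartum log2 level was 0.17 for FTH1 and 0.24 for FTL, against 1.11 for TF, which leaves less order to be seen.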
